A study of Mus musculus with 14 samples.

Results

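Genes of fatty acid and triacylglycerol synthesis, of their transcriptional control and of the lipid droplet were followed in the liver of TALLYHO mice treated with indole or vehicle. The 43 genes were chosen by name from the 55487 genes of the count table, where each had 1 row, and 38 of them had enough reads in enough mice to be tested. Too few reads were counted on *Mogat1*, *Plin4*, *Cidea*, *Cidec* and *Pnpla3*, and their levels are given as reads.

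The animals were male TALLYHO/JnG mice, a polygenic model of type 2 diabetes, and the study's mice were 8–12 weeks old. By oral gavage, 7 mice were given indole at 20 mg/kg and 7 were given water (vehicle), with 2 doses per day on 7 days and 2 more doses on the day between a pair of glucose or insulin tolerance tests. The right liver lobe was taken 1 day after the last test, and 1 polyA RNA library was made from each mouse, named G1 to G14. Whether the mice had been fed or fasted when the liver was taken is not given in the sources used here. Libraries of vehicle-treated mice are G1, G4, G6, G9, G10, G11 and G13, and those of indole-treated mice are G2, G3, G5, G7, G8, G12 and G14.

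The liver turns surplus carbohydrate into fat. Citrate leaves the mitochondria and is cleaved to acetyl-CoA, which acetyl-CoA carboxylase and fatty acid synthase build into palmitate, and elongases and desaturases then lengthen the chain and add double bonds. Acyl chains are joined to glycerol step by step to give triacylglycerol, which is stored in droplets coated with perilipin and CIDE proteins, broken down by lipases, or exported in VLDL. SREBP-1c (gene *Srebf1*) carries the insulin signal to these genes and ChREBP (gene *Mlxipl*) the glucose signal, and the liver X receptors (*Nr1h3*, *Nr1h2*) act upstream of SREBP-1c.

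The DNA before the gene starts is shown first for genes on which the results turn. SREBP binds sterol regulatory elements and some E-box-like sites, usually beside a CCAAT box bound by NF-Y, and ChREBP binds pairs of E-boxes. RefSeq windows of the 250 bases before a start (GRCm38.p6) were found for 35 of the 43 genes, 48 windows in all. *Dgat2*, *Dgat1*, *Fads1*, *Scd1*, *Scd2*, *Elovl3*, *Cidea* and *Fabp4* were not matched. The stretch of 30 bases around the E-box-like site of *Thrsp*, the gene with the smallest *p* of the group, and the windows of *Fasn*, the reference of a later comparison, and of *Mlxipl*, which encodes one of the regulators, are printed 5′ to 3′ on the strand of the gene. Capitals mark motif letters, read on either strand.
Thrsp, chr7:97417646-97417675, minus strand: gggtagatggaTCACCTGAtacagacactg
Fasn, chr11:120824548-120824797, minus strand: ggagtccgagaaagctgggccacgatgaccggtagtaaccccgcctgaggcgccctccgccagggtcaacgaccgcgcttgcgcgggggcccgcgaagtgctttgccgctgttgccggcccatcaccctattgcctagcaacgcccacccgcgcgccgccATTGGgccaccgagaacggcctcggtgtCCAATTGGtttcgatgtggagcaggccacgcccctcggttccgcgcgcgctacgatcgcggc
Mlxipl, chr5:135089640-135089889, plus strand: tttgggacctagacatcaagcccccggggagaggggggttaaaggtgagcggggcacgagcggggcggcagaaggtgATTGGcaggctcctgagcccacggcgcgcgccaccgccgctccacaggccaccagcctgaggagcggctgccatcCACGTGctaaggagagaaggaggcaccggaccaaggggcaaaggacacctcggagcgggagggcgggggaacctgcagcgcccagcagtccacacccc
The E-box-like letters TCACNTGA of *Thrsp* lie 114 to 107 bases before the RefSeq start. They were found in 1 of the 48 windows (2.08%), that of *Thrsp*, and in 3.45% of the 32851 windows of all genes. In GENCODE vM21 a longer *Thrsp* transcript starts further upstream. Of the 250 bases of this window, 180 are in the 5′ untranslated region of that transcript, and the site is among them. The *Fasn* and *Mlxipl* windows printed lie outside annotated genes.

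In *Fasn* the capitals are 3 CCAAT boxes, of which the last pair overlap on opposite strands. CCAAT boxes were found in 22 of the 48 windows (45.8%), from 19 genes, and in 33.8% of all windows. In *Mlxipl* the capitals are a CCAAT box and an E-box, CACGTG. E-boxes of these letters were in 3 of 48 windows (6.25%), those of *Mlxipl*, *Elovl5* and *Slc25a1*, and in 6.02% of all windows.

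The sterol regulatory element TCACNCCAC was in 1 of the 48 windows (2.08%) and in 346 of the 32851 windows of all genes. That match is 136 to 128 bases before a second, downstream start of *Mlxipl*, within an intron of the longer transcript.
Mlxipl, chr5:135106744-135106773, plus strand: gatcagtggttTCACACCACgctcactggt
The paired E-boxes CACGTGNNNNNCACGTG and the direct repeats AGGTCANAGGTCA and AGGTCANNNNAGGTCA, to which PPAR and LXR dimers with RXR bind, were in 0 of the 48 windows. They were in 0, 11 and 5 of the 32851 windows of all genes, both strands being read. These are matches of letters and not measured binding.

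Across the libraries, 15197498 to 21060376 reads per mouse were counted on genes, and the 43 genes took up 1.02–2.04% of them (median 1.23%) with vehicle and up to 1.85% (median 1.49%) with indole. Levels are given as CPM (counts scaled to a common library size) after TMM normalisation, and levels of different genes are compared only per kilobase of gene length. Hepatocyte markers were abundant in every library, with *Alb*, *Ttr*, *Apoa1*, *Cps1*, *Cyp2e1* and *Asgr1* summing to between 66958 and 100977 CPM. Adipocyte markers (*Adipoq*, *Plin1*, *Cfd*, *Retn*, *Lep*) had 4 reads over all 14 mice, with *Retn* and *Lep* at 0. The 3 erythroid markers were each higher in the indole group with an unadjusted *p* below 0.05 from edgeR, beside 1.53% of all genes tested. Their summed level was 186–352 CPM with vehicle and 243–989 CPM with indole. In either direction, 1 of 6 hepatocyte, 1 of 5 endothelial, 1 of 5 stellate cell and 0 of 7 Kupffer cell markers passed. The share of all genes tested was 3.81%. Kupffer cell markers summed to 356 CPM in indole-treated mouse G8, to 89.6–146 CPM in the rest of its group and to 67.4–196 CPM with vehicle. Stellate cell markers summed to 234–282 CPM with vehicle and 171–343 CPM with indole. Their part in the results was not tested, and in a whole liver lobe fewer cells of a type and less RNA per cell cannot be told apart. Libraries G1 to G4, a pair from each group, had TMM factors of 1.07–1.08, and the other 10 libraries had factors of 0.931–1.004.

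Of the 38 genes tested, *Thrsp* and *Agpat2* were higher and *Pnpla2* was lower in indole-treated mice at an unadjusted *p* below 0.05 from edgeR. This is 3 of 38 genes (7.89%), beside 482 of all 12653 genes tested, or 3.81%. By direction it was 2 higher, beside 1.53% of all genes tested, and 1 lower, beside 2.28%. None of the 38 passed after Benjamini–Hochberg adjustment over all genes tested, where each had an adjusted *p* of 0.998 from edgeR. DESeq2, the test used in the study, gave 4 of 43 genes an unadjusted *p* below 0.05, the same 3 and *Pnpla3*, against a background of 3.19% of 22535 genes (1.4% higher and 1.79% lower), and the smallest adjusted *p* among them was 0.908 from DESeq2. The median log2 fold change of the 38 genes was 0.06, with a range of −0.20 to 0.78, and 26 leaned higher and 12 lower. Over all genes tested the median was 0.00, and 6489 leaned higher and 6164 lower. Leans of genes that moved together from mouse to mouse are not independent. With 1 surrogate variable as a covariate, *Agpat3* was lower as well, 4 of 38, beside 5.12% of all genes tested (2.27% higher and 2.85% lower).

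**Figure D1:**
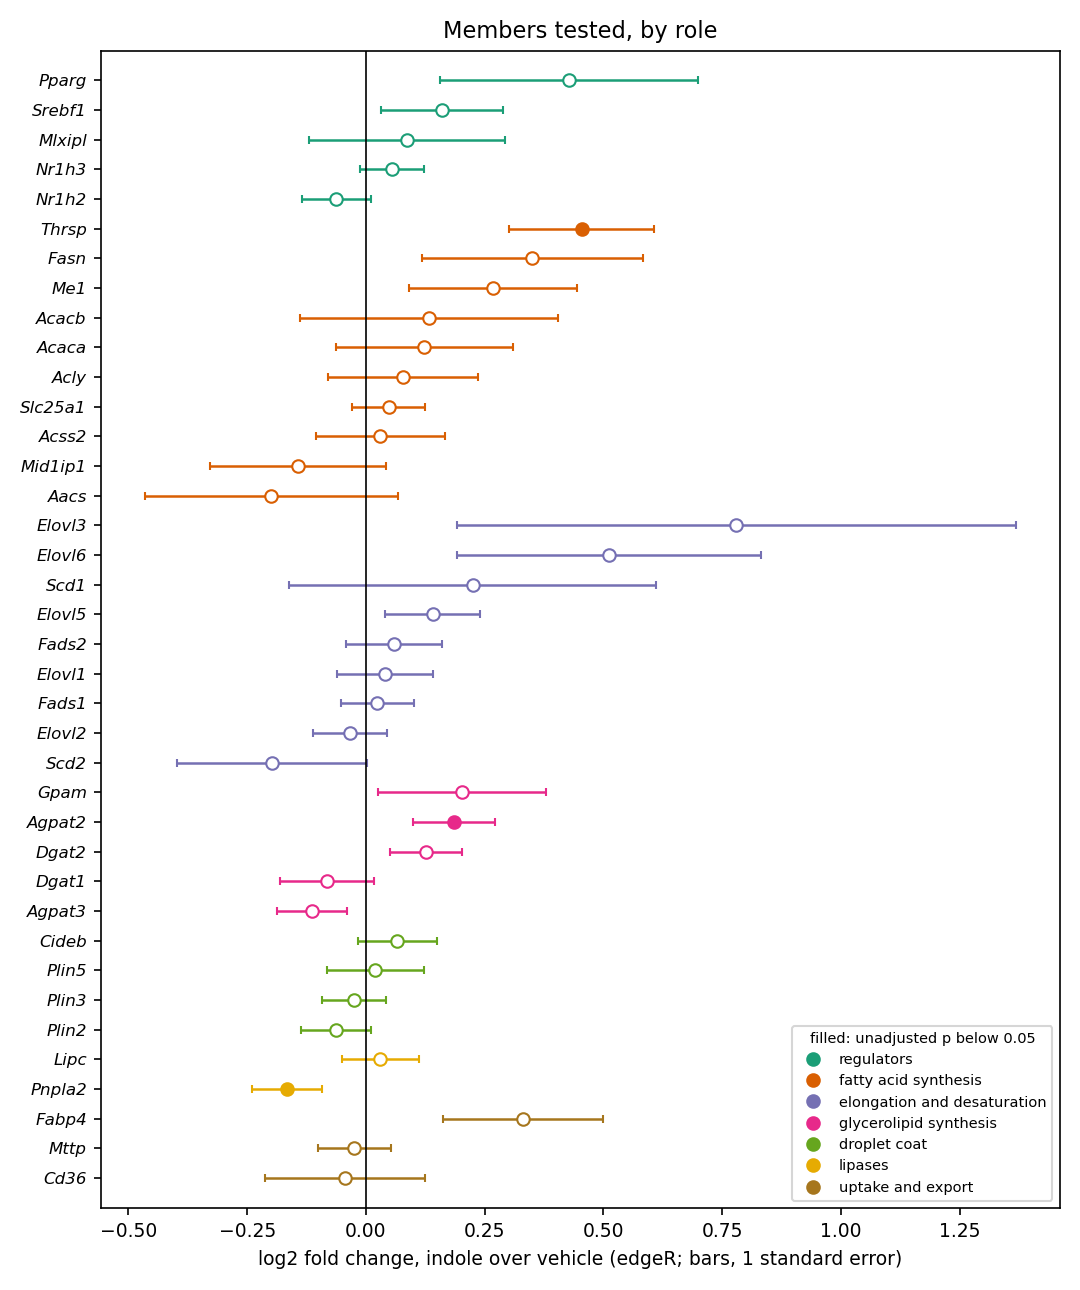
Log2 fold change of indole over vehicle for each of the 38 genes tested (x axis), by role (colour), with bars of 1 SE; filled points have an unadjusted p below 0.05. *Thrsp*, *Agpat2* and *Pnpla2* are filled, and *Elovl3* at 0.78 and *Elovl6* at 0.51 have the highest points and wide bars.

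*Thrsp* (ENSMUSG00000035686, chromosome 7 from 97412938 to 97417730) encodes Spot 14, a small protein that promotes fatty acid synthesis and whose transcript responds to thyroid hormone, carbohydrate and insulin. Per kilobase it was the second most abundant of the 43 genes, at 542 CPM. In vehicle-treated mice its level was 727 CPM in the lowest mouse, 966 CPM at the median and 1383 CPM in the highest. In indole-treated mice it was 971, 1387 and 1728 CPM respectively. With indole, all 7 mice lay above the vehicle median and 4 lay above every vehicle-treated mouse, while 4 vehicle-treated mice lay below every indole-treated mouse, so the groups overlapped in part. Means were 1001±247 CPM (SD, *n*=7) and 1371±268 CPM (SD, *n*=7), and the log2 fold change was 0.45±0.153 (SE), at an unadjusted *p* of 0.00868 in edgeR and 0.00212 in DESeq2. By the exact permutation test of mean log2 CPM the two-sided *p* was 0.0221, the smallest that 7 mice against 7 allow being 0.000583. The unadjusted *p* of *Thrsp* stayed between 0.00121 and 0.0219 under all 21 alternatives tried, including those without each mouse in turn. The difference of mean log2 CPM was 0.80 within libraries G1 to G4 and 0.33 within the other 10.

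**Figure D2:**
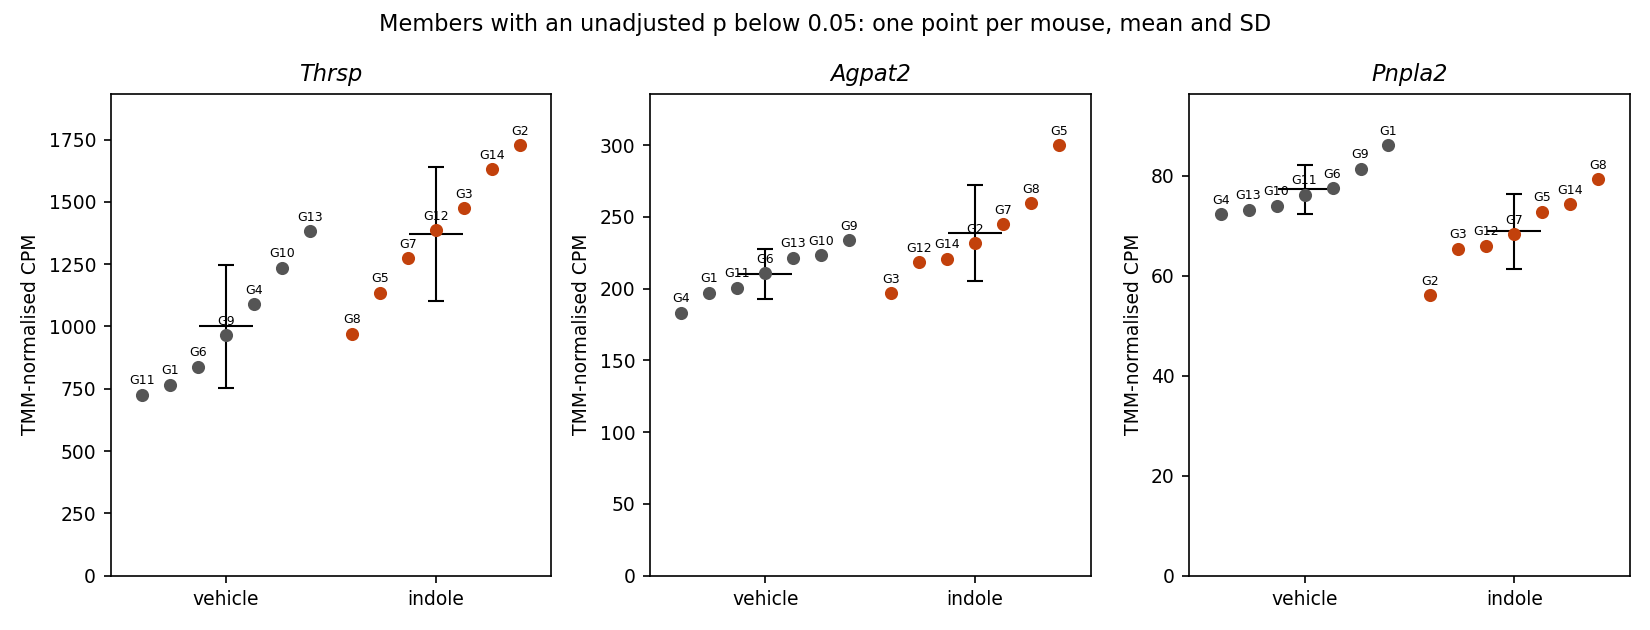
TMM-normalised CPM (y axis, from 0) of *Thrsp*, *Agpat2* and *Pnpla2*, 1 point per mouse, with the mean and SD of each group of 7. The groups overlap for each gene, and all 7 indole-treated mice lie above the vehicle median of 966 CPM for *Thrsp*.

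The other genes of fatty acid synthesis did not pass the unadjusted threshold, and 7 of these 9 leaned higher, beside 6489 of all 12653 genes tested. *Fasn*, fatty acid synthase, was at 462, 919 and 1226 CPM in the lowest, median and highest vehicle-treated mouse and at 701, 1069 and 1698 CPM in indole-treated mice. Its log2 fold change was 0.35±0.233 (SE), at an unadjusted *p* of 0.155 in edgeR. The lowest *Fasn* levels were those of vehicle-treated mice G1 and G6, and the highest was that of indole-treated mouse G14. *Me1*, the cytosolic malic enzyme that supplies NADPH, had a log2 fold change of 0.27±0.177 (SE), and 6 of 7 mice given indole exceeded the vehicle median of 280.1 CPM.

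The citrate carrier *Slc25a1*, ATP citrate lyase *Acly*, acetyl-CoA synthetase *Acss2* and the acetyl-CoA carboxylases *Acaca* and *Acacb* had log2 fold changes from 0.03 to 0.13. *Mid1ip1*, a homologue of *Thrsp* whose protein helps acetyl-CoA carboxylase to polymerise, had a log2 fold change of −0.14, and *Aacs*, acetoacetyl-CoA synthetase, one of −0.20. For *Aacs* the highest mouse was vehicle-treated G13 at 225 CPM, against at most 133 CPM in any other mouse. Part of the *Acss2* span is shared with *Gss* on the opposite strand, on which 17527 reads were counted against 108997 on *Acss2*.

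Elongases and desaturases included the most abundant gene and the most variable ones, and 0 of the 9 passed the unadjusted threshold. *Scd1*, the stearoyl-CoA desaturase that makes oleate and palmitoleate, led all 43 genes at 844 CPM per kilobase. Its level was 1588, 2793 and 8818 CPM in the lowest, median and highest vehicle-treated mouse and 1778, 4612 and 6394 CPM in indole-treated mice. The highest mouse was G13 of the vehicle group, and 6 of 7 mice given indole exceeded the vehicle median. The log2 fold change was 0.22±0.387 (SE), at an unadjusted *p* of 0.572 in edgeR and 0.539 in DESeq2. Without single mice it ran from 0.09 (without G1) to 0.58 (without G13, unadjusted *p* of 0.0938), and it was 0.12 without G3 or without G6. The difference of mean log2 CPM was 0.99 within libraries G1 to G4 and 0.10 within the other 10. *Scd2*, a close paralogue of *Scd1* that is mainly expressed outside the liver, was at 3.78–10.8 CPM, and reads of the pair that cannot be placed uniquely are not in the counts.

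*Elovl6*, which elongates palmitate to stearate, was at 132, 168 and 374 CPM in the lowest, median and highest vehicle-treated mouse and at 145, 277 and 457 CPM in indole-treated mice, where 3 of 7 exceeded the whole vehicle group. The difference on the log2 scale was 0.51±0.319 (SE), at an unadjusted *p* of 0.134 in edgeR. For *Elovl6* the difference of mean log2 CPM was 1.14 within libraries G1 to G4, 2 mice against 2, and 0.20 within the other 10. It was 0.72 and 0.23 for *Fasn*, 0.68 and 0.12 for *Me1*, and 0.55 and −0.03 for *Acaca*. *Elovl3*, which makes very long saturated chains, varied 21.7-fold between mouse G6 at 1.73 CPM and mouse G2 at 37.6 CPM, and its log2 fold change of 0.78 had an SE of 0.589. The within-group SD of its log2 CPM was larger than that of 99.5% of all genes tested. *Elovl5*, which elongates polyunsaturated chains, was abundant at 211 CPM per kilobase and had a log2 fold change of 0.14±0.100 (SE).

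None of the other genes for polyunsaturated chains passed the unadjusted threshold. *Fads2* and *Fads1*, the Δ6 and Δ5 desaturases, were at 235 and 143 CPM per kilobase, with log2 fold changes of 0.06 and 0.02, and *Elovl2* was at 109 CPM per kilobase, with −0.03. *Elovl1*, an elongase of saturated very long chains, had 0.04. In libraries G1 to G4, *Fads2*, *Elovl1* and *Slc25a1* lay below and *Mid1ip1* above all other 10 libraries. This was 4 of the 38 genes tested, beside 3.64% of all genes tested whose levels did not overlap in that division (1.75% higher and 1.89% lower).

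**Figure D3:**
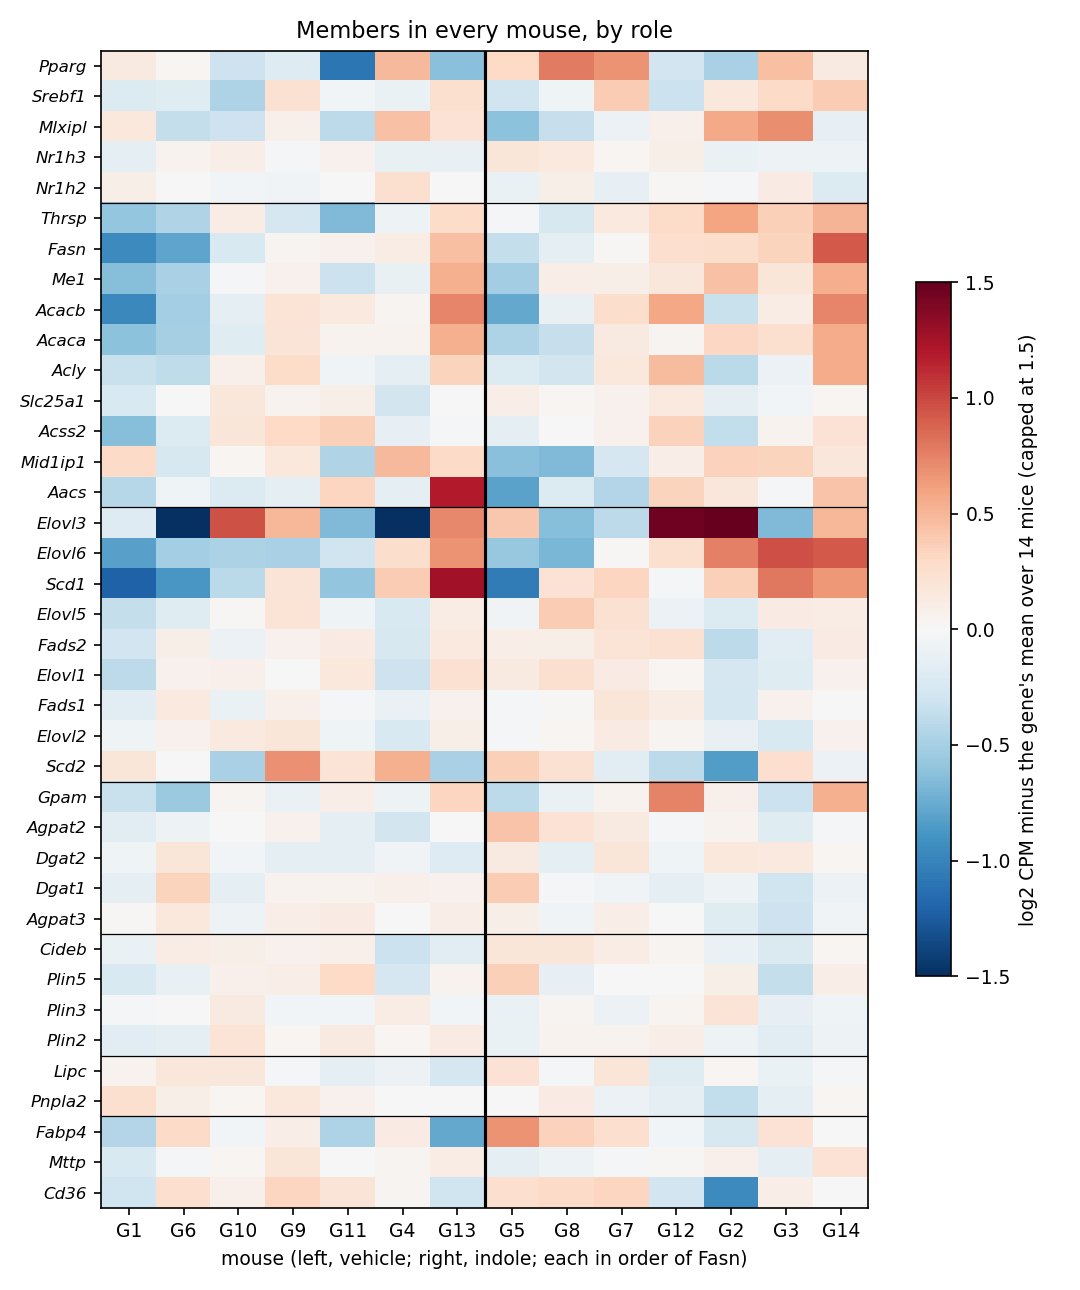
Log2 CPM of the 38 genes tested (rows, by role) in each mouse (columns, vehicle left and indole right, each in order of *Fasn*), as the difference from the gene's mean over 14 mice, capped at 1.5. *Scd1*, *Elovl6*, *Me1* and *Acaca* go from below to above their means along the order of *Fasn*, and the droplet coat genes stay pale.

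The median within-group SD of log2 CPM was 0.243 for the 38 genes and 0.238 for all genes tested. It differed by gene. *Elovl3*, *Scd1* (larger than 95.8% of all genes tested), *Elovl6* (91.9%), *Acacb* (87.5%), *Aacs* (84.8%) and *Fasn* (82.5%) were among the more variable genes. *Plin3* (3.17%), *Nr1h3* (5.19%), *Nr1h2* (5.86%), *Agpat3* (8.52%) and *Plin2* (8.89%) were among the steadier ones.

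Transcripts of the regulators did not differ at the unadjusted threshold, 0 of 5 passing. *Srebf1* was the most abundant of them per kilobase, at 42.3 CPM. It was at 170.0, 218 and 276 CPM in the lowest, median and highest vehicle-treated mouse and at 188, 261 and 306 CPM in indole-treated mice. With indole, 5 of 7 mice exceeded the vehicle median, and the log2 fold change was 0.16±0.129 (SE), at an unadjusted *p* of 0.229 in edgeR and 0.215 in DESeq2. The counts do not separate the SREBP-1a and SREBP-1c transcripts.

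*Mlxipl* ranged over 53.4, 74.3 and 95.6 CPM with vehicle and 46.0, 66.2 and 114 CPM with indole, and G2 and G3 were the highest of the indole-treated mice. The log2 fold change was 0.09±0.207 (SE), at an unadjusted *p* of 0.682 in edgeR and 0.620 in DESeq2, and it was −0.01 without G2 and −0.05 without G3. *Nr1h3*, which encodes LXRα, was at 86.9, 94.0 and 102.3 CPM with vehicle and at 89.3, 98.1 and 108 CPM with indole, and its log2 fold change was 0.06±0.0681 (SE), at an unadjusted *p* of 0.428 in edgeR and 0.406 in DESeq2. *Nr1h2*, which encodes LXRβ, was at 27.9, 28.9 and 34.2 CPM and at 25.2, 28.6 and 31.7 CPM respectively, and its log2 fold change was −0.06±0.0730 (SE), at an unadjusted *p* of 0.405 in edgeR and 0.437 in DESeq2. The groups overlapped for each of these genes.

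*Pparg* encodes PPARγ, the adipocyte regulator that steatotic liver can express. It was scarce, at 0.422 CPM per kilobase and 10 to 33 reads per mouse. Levels were 0.554, 1.03 and 1.65 CPM with vehicle and 0.841, 1.44 and 2.02 CPM with indole, with 5 of 7 indole-treated mice above the vehicle median. The log2 fold change was 0.43±0.271 (SE), at an unadjusted *p* of 0.130 in edgeR and 0.129 in DESeq2. Without G8 and G11, the highest and the lowest mouse, it was 0.22. The difference of mean log2 CPM was −0.29 within libraries G1 to G4 and 0.68 within the other 10, a turn of direction. Mouse G8 was also the one with Kupffer cell markers at 356 CPM, whose part in the *Pparg* values was not tested.

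In glycerolipid synthesis *Agpat2* alone of the 5 genes tested passed the unadjusted threshold. *Agpat2* (ENSMUSG00000026922, chromosome 2 from 26593057 to 26604417) encodes the acyltransferase that turns lysophosphatidic acid into phosphatidic acid, and its loss causes lipodystrophy. Levels were 183, 211 and 234 CPM with vehicle and 197, 232 and 299.9 CPM with indole. With indole, 6 mice exceeded the vehicle median and 3 the whole vehicle group, with G5 the highest. The log2 fold change was 0.19±0.0865 (SE), at an unadjusted *p* of 0.0449 in edgeR and 0.0396 in DESeq2, and a two-sided *p* of 0.0606 by the exact permutation test. Without G5 the log2 fold change was 0.12 (unadjusted *p* of 0.136), and the unadjusted *p* was also above 0.05 without G1, G4, G6, G7, G8 or G11, at 0.0587 to 0.0937. The span of *Agpat2* overlaps that of *Egfl7*, an endothelial gene on the opposite strand with 2039 reads against 55204 on *Agpat2*. Endothelial markers summed to 54.5–95.6 CPM with vehicle and 64.8–120.2 CPM with indole, and erythroid markers reached 989 CPM, G5 being the highest mouse in both. Their part in the *Agpat2* result was not tested.

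*Dgat2*, which adds the last acyl chain to triacylglycerol, was the most abundant gene of this role at 205 CPM per kilobase. It was at 553, 605 and 716 CPM with vehicle and at 568.5, 695 and 715 CPM with indole, with 5 of 7 indole-treated mice above the vehicle median. The log2 fold change was 0.13±0.0764 (SE), at an unadjusted *p* of 0.113 in edgeR and 0.0751 in DESeq2. Vehicle-treated mouse G6 was the highest of all. Without it the log2 fold change was 0.17, at an unadjusted *p* of 0.0323 and an adjusted *p* of 0.920 in edgeR. *Dgat1*, the other enzyme of this step, was at 6.26 CPM per kilobase with a log2 fold change of −0.08. *Gpam*, the mitochondrial acyltransferase of the first step, had 0.20±0.177 (SE), and *Agpat3* had −0.11±0.0730 (SE).

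*Mogat1*, a monoacylglycerol acyltransferase that is induced in fatty liver, had 0 to 11 reads with vehicle and 3 to 12 with indole, per mouse. The sums were 21 and 47 reads, in 5 and 7 mice with a read, and the unadjusted *p* was 0.0721 from DESeq2.

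Droplet coat genes differed little, with log2 fold changes from −0.06 to 0.07 for the 4 tested. *Cideb*, which serves lipid loading of VLDL in hepatocytes, was the most abundant per kilobase at 171 CPM. It was at 202, 265 and 274 CPM with vehicle and at 218, 259.8 and 288 CPM with indole, with overlap of nearly the whole ranges. Its log2 fold change was 0.07±0.0836 (SE), at an unadjusted *p* of 0.437 in edgeR and 0.429 in DESeq2.

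*Plin2*, the coat protein that follows the amount of stored lipid in hepatocytes, was at 226–292 CPM with vehicle and 227–271 CPM with indole, with a log2 fold change of −0.06±0.0732 (SE). *Plin3* had −0.02 and *Plin5*, the coat protein of oxidative tissues, 0.02. Reads of the remaining coat genes were few. *Cidec* had 4 to 17 reads per mouse, *Plin4* had 0 to 10, and *Cidea* had 2 reads in all, both in the vehicle group, where 3 reads per library were taken as the floor.

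Among the lipases, *Pnpla2* (ENSMUSG00000025509, chromosome 7 from 141455198 to 141460743) was lower in indole-treated mice. It encodes adipose triglyceride lipase, which takes the first acyl chain off stored triacylglycerol. Levels were 72.3, 76.2 and 86.1 CPM with vehicle and 56.1, 68.3 and 79.3 CPM with indole. With indole, 4 mice lay under the whole vehicle group, and G8 alone lay above the vehicle median. The log2 fold change was −0.17±0.0740 (SE), at an unadjusted *p* of 0.0364 in edgeR and 0.0417 in DESeq2, and a two-sided *p* of 0.0256 by the exact permutation test. Without G2, the lowest mouse, it was −0.12 (unadjusted *p* of 0.0989), and the unadjusted *p* was also above 0.05 without G1, G3, G6, G7, G9, G11 or G12, at 0.0509 to 0.0914. The difference of mean log2 CPM was −0.38 within libraries G1 to G4 and −0.09 within the other 10.

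*Lipc*, the hepatic lipase of the sinusoids, was the most abundant lipase per kilobase at 80.2 CPM. It was at 144, 170.0 and 193 CPM with vehicle and at 152, 169 and 199.5 CPM with indole, nearly the same range. Its log2 fold change was 0.03±0.0815 (SE), at an unadjusted *p* of 0.712 in edgeR and 0.686 in DESeq2. *Pnpla3*, whose human counterpart is a known risk gene for fatty liver, was close to absent in these libraries, with 0 to 3 reads per mouse with vehicle (4 in sum) and 1 to 4 with indole (17 in sum). All 7 indole-treated mice had a read, as did 2 of the vehicle-treated mice, and the unadjusted *p* was 0.0377 from DESeq2. At these counts no fold is given.

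In uptake and export, 0 of 3 genes passed. *Mttp*, which loads triacylglycerol on to apolipoprotein B, led at 54.5 CPM per kilobase. It was at 288, 344 and 382 CPM with vehicle and at 305, 331 and 390.3 CPM with indole, with a log2 fold change of −0.02±0.0759 (SE), at an unadjusted *p* of 0.755 in edgeR and 0.786 in DESeq2. *Cd36*, the fatty acid translocase, had −0.04, with its lowest level, 67.9 CPM, in indole-treated mouse G2. *Fabp4*, a fatty acid binding protein of adipocytes, macrophages and endothelium, was at 3.88–8.07 CPM with vehicle and 5.62–10.5 CPM with indole. Its log2 fold change was 0.33±0.168 (SE), at an unadjusted *p* of 0.0628 in edgeR, and its highest mouse was again G5, which had the highest sum of endothelial markers.

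A further 64 genes of the same pathways, none of them among the 43, were counted beside them, and 60 could be tested. Of these, 2 passed the unadjusted threshold (3.33%, beside 3.81% of all genes tested), and their median log2 fold change was 0.02. *Insig2*, which encodes a protein that holds SREBP in the endoplasmic reticulum, was at 103, 117 and 152 CPM in the lowest, median and highest vehicle-treated mouse and at 79.5, 104 and 127 CPM in indole-treated mice, a log2 fold change of −0.23±0.102 (SE), at an unadjusted *p* of 0.0368 in edgeR. *Fabp2*, an intestinal-type fatty acid binding protein, was at 42.1, 47.9 and 64.3 CPM with vehicle and at 49.6, 58.3 and 73.3 CPM with indole, and its log2 fold change was 0.22±0.0997 (SE), at an unadjusted *p* of 0.0430 in edgeR. For each of them, leaving out any 1 of 6 mice (*Insig2*) or any 1 of 7 (*Fabp2*) gave an unadjusted *p* above 0.05. By sub-list, 1 of 12 genes of SREBP processing and its partners passed (lower), with 5 leaning higher and 7 lower. Of uptake and export 1 of 9 passed (higher), with 6 leaning higher and 3 lower. Of NADPH and pyruvate supply 0 of 9 passed, with 9 leaning higher by 0.00078 to 0.28 on the log2 scale. Of all 12653 genes tested, 6489 leaned higher. None passed of 8 genes of fatty acid activation and elongation (5 leaning higher and 3 lower), of 8 of glycerolipid steps (5 and 3) or of 14 of droplet assembly and lipolysis (5 and 9).

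To see which genes of the group moved with their regulators from mouse to mouse, 18 pairs of a regulator and a gene it is known to act on were correlated over the 14 mice. Of these, 4 had a Benjamini–Hochberg adjusted permutation *p* below 0.05 for Pearson's *r*, and 3 for Spearman's rho. The pairs included *Pnpla3*, *Cidea*, *Cidec*, *Mogat1* and *Plin4*, which had too few reads to be tested, so their *r* is limited by counting error. *Cidea*, with 2 reads in all, could show no relation. *Srebf1* correlated with *Acaca*, with *r* of 0.736 (permutation *p*=0.00345, adjusted 0.0280) and rho of 0.771 (permutation *p*=0.00185, adjusted 0.0166). Within the vehicle group *r* was 0.720 and within the indole group 0.747, where by the exact permutation test neither group of 7 passed (*p*=0.0631 and 0.0619). Without G7 and G14, the mice farthest from the median of *Srebf1*, *r* was 0.701, and over the 10 libraries other than G1 to G4 it was 0.727.

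*Srebf1* and *Scd1* had *r* of 0.713 (permutation *p*=0.00467, adjusted 0.0280) and rho of 0.705 (permutation *p*=0.00613, adjusted 0.0368), with *r* of 0.657 and 0.784 within the vehicle and indole groups, 0.708 without G7 and G14, and 0.705 over the 10 libraries. *Pparg* and *Fabp4*, its classical target, had *r* of 0.715 (permutation *p*=0.00377, adjusted 0.0280) and rho of 0.789 (permutation *p*=0.00119, adjusted 0.0166), with *r* of 0.601 and 0.704 within the groups, 0.646 without G8 and G11, the mice farthest from the median of *Pparg*, and 0.786 over the 10 libraries. On deviations from the group means the *r* of *Pparg* and *Fabp4* was 0.641 and did not pass (adjusted permutation *p* of 0.0634). For *Pparg* each value rests on at most 33 reads. *Fabp4* is also a gene of macrophages and endothelium, and the part of these cells in this *r* was not tested. *Mlxipl* and *Elovl6* had *r* of 0.667 (permutation *p*=0.0100, adjusted 0.0450) and rho of 0.604 (permutation *p*=0.0243, adjusted 0.104), with *r* of 0.488 and 0.806 within the groups, 0.531 without G3 and G5 and 0.636 over the 10 libraries.

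The pairs of *Mlxipl* with *Fasn*, *Acacb*, *Thrsp*, *Pklr* and *Me1* had *r* from 0.205 to 0.467 and did not pass. Without G3 and G5, the mice farthest from the median of *Mlxipl*, *r* was −0.0021 with *Acacb*, 0.224 with *Pklr* and 0.247 with *Fasn*. It was 0.331 with *Me1* and 0.461 with *Thrsp*. Over the 10 libraries other than G1 to G4, *r* was 0.840 with *Acacb*, 0.783 with *Me1*, 0.747 with *Pklr*, 0.596 with *Fasn* and 0.484 with *Thrsp*, as values without a test. Of the 4 libraries left out, G2, G3 and G4 had the 3 highest *Mlxipl* levels of all mice. *Srebf1* with *Fasn* had *r* of 0.614 (permutation *p*=0.0184, adjusted 0.0664) and rho of 0.591 (permutation *p*=0.0290, adjusted 0.104). With *Elovl6* *r* was 0.616, with *Pnpla3*, which had few reads, 0.365 and with *Acly* 0.324.

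**Figure D4:**
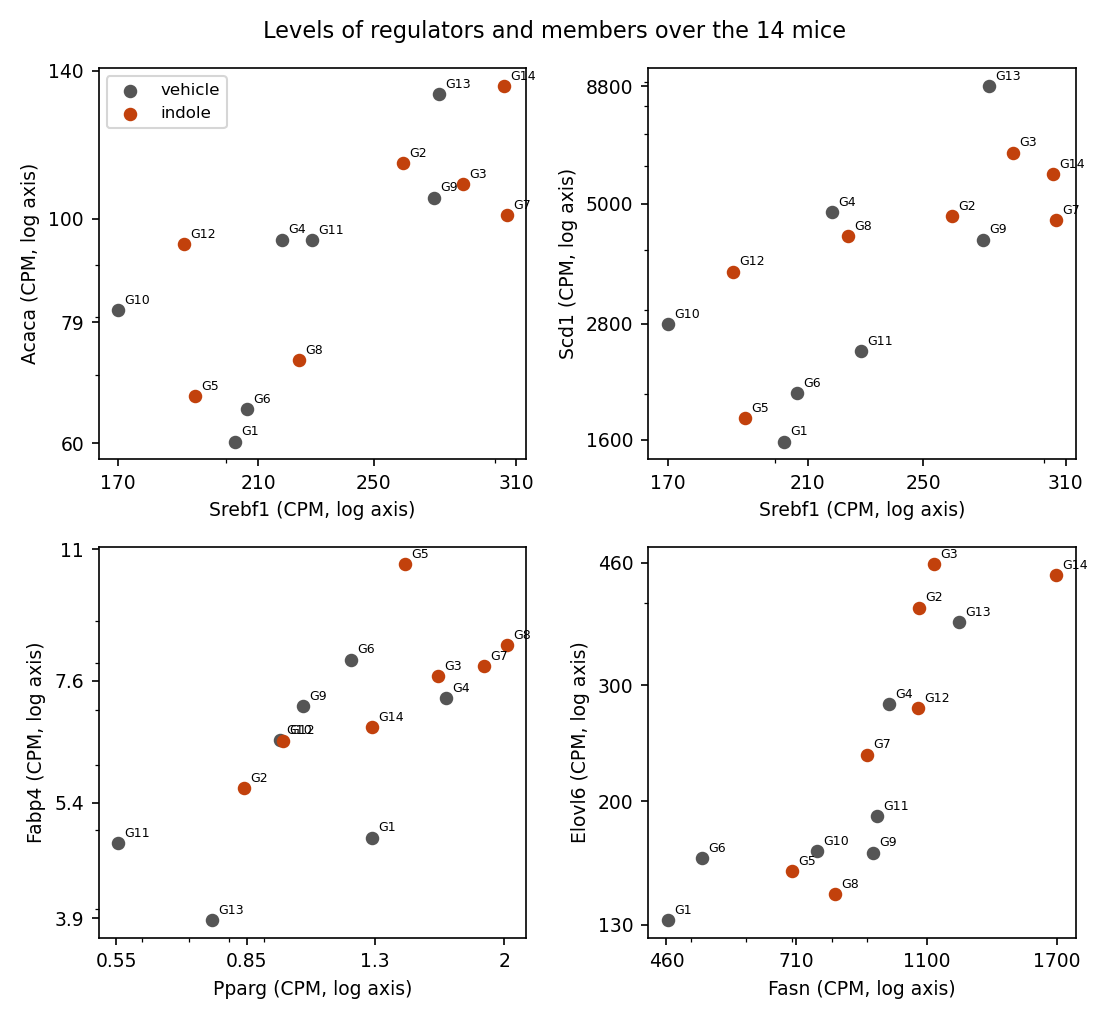
CPM of a regulator or of *Fasn* (x axis, log) against another gene (y axis, log) in the 14 mice, grey for vehicle and orange for indole. *Srebf1* rises with *Acaca* (*r* of 0.736) and *Scd1* (0.713), *Pparg* with *Fabp4* (0.715), and *Fasn* with *Elovl6* (0.834), with the points of both groups intermingled.

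*Fasn* was then taken as the reference for the other 37 genes tested, a comparison chosen after the data had been seen. The adjusted permutation *p* of Pearson's *r* was below 0.05 for 9 genes, and that of Spearman's rho for 11. The adjustment covered these 37 pairs alone. No share of all genes tested stands beside these counts, so whether they exceed that of other genes was not tested. The closest was *Acaca*, the preceding enzyme, with *r* of 0.930 and rho of 0.912, and with *r* of 0.976 and 0.917 within the vehicle and indole groups, 0.902 without G1 and G14, the mice farthest from the median of *Fasn*, and 0.910 over the 10 libraries other than G1 to G4. The permutation *p* of this *r* was 1e-05, the smallest that 100000 random pairings can give (adjusted 0.000370), and that of rho was 3e-05 (adjusted 0.000555).

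*Me1* (*r* of 0.874), *Acacb* (0.851), *Elovl6* (0.834), *Scd1* (0.830), *Thrsp* (0.728), *Gpam* (0.724), *Mttp* (0.679) and *Acly* (0.679) followed, with adjusted permutation *p* values from 0.000740 to 0.0319. Their rho values ran from 0.538 to 0.916, and that of *Acly* did not pass (adjusted 0.137). Without G1 and G14, *r* was 0.800 for *Me1*, 0.732 for *Acacb*, 0.777 for *Elovl6*, 0.811 for *Scd1*, 0.579 for *Thrsp*, 0.644 for *Gpam*, 0.492 for *Acly* and 0.317 for *Mttp*. Over the 10 libraries other than G1 to G4, *r* was 0.869 for *Acly* and 0.703 for *Mttp*. Within the vehicle and indole groups *r* was 0.829 and 0.628 for *Acly* and 0.791 and 0.795 for *Mttp*, and each of the 9 genes had a positive *r* within both groups. In the main comparison *Aacs* passed by rho alone, at 0.789 (adjusted 0.0116). *Lipc* and *Cideb* ran the other way by rho, −0.688 (adjusted 0.0342) and −0.648 (adjusted 0.0480), with *r* of −0.561 and −0.290 that did not pass. On deviations from the group means, *r* passed for *Aacs* (0.756, adjusted permutation *p* of 0.00872) and *Lipc* (−0.665, adjusted 0.0333). Without G8 and G11, *r* no longer passed for *Acly* (adjusted permutation *p* of 0.0592) and *Mttp* (0.0619). *Plin2*, *Plin3* and *Plin5* had *r* from −0.05 to 0.28 with *Fasn*, and *Dgat2* had −0.12. The mice that were high in *Fasn* were thus high in the carboxylases, in *Me1*, in *Scd1* and in *Elovl6*, with no such relation passing for the genes of the perilipin coat.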

How the data were processed

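Liver RNA of 14 TALLYHO mice, 7 per group, was sequenced as strand-specific polyA libraries. The authors trimmed adapters, aligned with HISAT2 to GRCm38 and its Ensembl genes, and deposited raw counts of uniquely mapped reads per gene, not normalised. The counting tool and its strand setting are not given in the sources used here, so reads from overlapping genes cannot be told apart. Groups were taken from the sample labels.

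Of the 55487 genes, 12653 passed filterByExpr. These were fitted together with the robust quasi-likelihood test of edgeR 4.0.16 after TMM normalisation in R 4.3.3. Benjamini–Hochberg adjustment covered the 12653 genes tested. The study's own test, DESeq2 1.42.0, was run on the 22535 genes with a read. Single genes were compared by exact two-sided permutation of mean log2 CPM (prior count 2) over 3432 relabellings. Correlations used 100000 random pairings, and the exact 5040 within a group. Each library comes from 1 mouse, and counting error is large for genes with few reads.

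The alternatives were DESeq2 with and without replacement of outlier counts, RLE scaling, no filter, a filter at a mean of 10 counts, 1 surrogate variable (sva 3.50.0), and leaving out each mouse, or G8 and G11 together. For the correlations they were RLE scaling, leaving out G8 and G11, and deviations from the group means. The fits were tested on simulated counts. Every gene of the group is named. Full values are given for genes with an unadjusted *p* below 0.05 by either test, for the regulators and for the most abundant gene per kilobase of each role, and further genes only where their values bear on a result. Values within G1 to G4 and within the other 10 libraries, the *Fasn* correlations and the E-box-like motif were chosen once the data had been seen. Genes and lists were chosen with earlier results of these data known.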

Additional observations from a re-analysis of the deposited data

Results flagged for a closer look

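Within each group of 7 mice, the gap from the highest or lowest mouse to its neighbour was divided by the range of the group, on the log2 CPM scale for each of the 38 genes tested and also for the total of reads counted on genes, and compared with Dixon's 95% critical value. Of 78 such comparisons, 3 exceeded it, where chance gives about 1 in 20, or 3.9. For *Me1*, indole-treated mouse G5 was the lowest of its group at 209.7 CPM, with a gap of 0.575 of the range of log2 CPM. For *Dgat1* the same mouse was the highest of its group at 24.7 CPM, with a gap of 0.597. For *Dgat2*, vehicle-treated mouse G6 was the highest of its group at 716 CPM, with a gap of 0.614. Without G5 the unadjusted *p* of *Me1* from edgeR was 0.0370, and without G6 that of *Dgat2* was 0.0323. Both genes leaned higher with indole and each mouse lay against that lean, so leaving it out had to widen the difference. No gene of the group had an adjusted *p* below 0.05 in either case.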

How the results depend on the processing

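No gene of the group had an adjusted *p* below 0.05 under any of 21 alternatives, with *Thrsp* the only gene of the 43 to keep an unadjusted *p* below 0.05 in all of them. The count of genes below that threshold was 3 of 38, beside 3.81% of all genes tested. Without a filter on low counts it was 5 of 43, where *Fabp4* and *Pnpla3* came in, beside 5.93%. Without single mice it ranged from 1 (without G1, G7 or G11) to 5 (without G13), beside 3.03–4.9% of all genes tested. The median log2 fold change of the group stayed between 0.03 and 0.09. For the 64 other genes of the pathways, the count of 2 was 0 without G8 and G11 together, beside 3.85% of all genes tested. It was 1 to 3 without single mice, beside 3.03–4.9%. Among the genes given full values, the direction changed for *Mlxipl* (−0.045 to 0.18 without single mice), *Lipc* (−0.0061 to 0.065) and *Mttp* (−0.061 to 0.0057). None of these was called. The direction of the other genes was not followed in this way. Without G8 and G11 together, 0 of the 18 regulator pairs passed instead of 4, with 12 mice left, although *r* was 0.748 for *Srebf1* and *Acaca*, 0.733 for *Srebf1* and *Scd1*, 0.627 for *Mlxipl* and *Elovl6* and 0.646 for *Pparg* and *Fabp4*. On deviations from the group means 3 passed, *Pparg* and *Fabp4* no longer among them. Without G8 and G11 the weak *r* of *Pparg* with *Cidea*, *Mogat1* and *Plin4* turned from negative to 0.0803, 0.0360 and 0.0414. On deviations from the group means it stayed negative, at −0.252, −0.584 and −0.0794. The *r* with *Mogat1* did not pass there (adjusted permutation *p* of 0.0906). Within libraries G1 to G4, the difference was 0.80 for *Thrsp* and −0.38 for *Pnpla2*, and that of *Pparg* turned to −0.29. Within the other 10, that of *Acaca* turned to −0.033. No paired analysis was possible because the names G1 to G14 are unique and no label pairs the mice. Depth limits *Pparg* and the 5 genes that could not be tested.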
